A study of Mus musculus with 6 samples.

Results

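The genes that carry the signal of Toll-like receptors to NF-κB were measured in colon tissue with tumors of mice given an oral regorafenib nanomedicine or PBS. The set holds 41 genes, chosen by gene name on the array: 12 Toll-like receptors, 2 co-receptors, 4 adapters, 12 kinases and ubiquitin ligases, 5 NF-κB subunits, and 6 inhibitors and atypical IκB proteins. They were read by 90 of the 56605 gene probes, and they are 41 of the 37325 gene names on the array. Of these, 38 passed the filter on dim probes and were tested among 19087 genes.

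All 6 animals were male C57BL/6 mice, 6 to 8 weeks old when purchased, in which colitis-associated colon cancer was induced. Both groups had received azoxymethane (AOM), a carcinogen, at 10 μg/g and then dextran sulfate sodium (DSS), which injures the colon epithelium, at 2% in the drinking water. The 3 mice of the RG@M-γ-CD group were given regorafenib (RG), a multikinase inhibitor, held in mannose-modified γ-cyclodextrin (M-γ-CD). The dose was 30 μg/g of complex, equivalent to 10 μg/g of RG. The 3 mice of the PBS group were given PBS in its place. Treatment lasted 21 days and was followed by 14 days of observation. Each mouse gave 1 one-color Agilent array, and the RG@M-γ-CD mice are also called treated. The tissue held tumor, stroma, muscle and immune cells together, so fewer cells of a type and less RNA per cell cannot be told apart.

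Toll-like receptors recognize microbial molecules at the cell surface (lipoproteins, lipopolysaccharide, flagellin) or in endosomes (nucleic acids). Most of them recruit the adapter Myd88, which assembles IRAK kinases and the ubiquitin ligase Traf6. The TAK1 complex (Map3k7 with Tab1 and Tab2) and then the IKK complex (Chuk, Ikbkb and Ikbkg) are activated, IκB proteins are degraded, and NF-κB dimers enter the nucleus. In the colon these receptors face the microbiota, and the pathway is known for its part in colitis, epithelial repair and colitis-associated tumors. Several of its own inhibitors and subunits are NF-κB target genes.

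The 6 arrays detected between 28103 and 31219 gene probes well above background (49.65% to 55.15%). The correlation over probes was lowest between RG@M-γ-CD replicates 1 and 2 (r = 0.939) and highest between PBS replicates 2 and 3 (r = 0.993). RG@M-γ-CD replicate 1 correlated better with PBS replicates 2 and 3 (r = 0.987 for each) than with RG@M-γ-CD replicate 3 (r = 0.975). The array numbers are 5, 6 and 7 for RG@M-γ-CD replicates 1 to 3 and 8, 10 and 11 for PBS replicates 1 to 3. A cluster diagram in the supplement of the study places array 5 beside 10 and 11, and array 8 beside 6 and 7. It names no condition, and its caption calls it a heat map of differential expression genes. An exchange of the labels of arrays 5 and 8 is therefore in question; it could not be settled from the sources used here, and it would change what every signed change means. All 3 treated arrays and PBS replicate 1 lay in row 1 of the slide, and PBS replicates 2 and 3 lay in row 2, so row and group overlap in part. The labels were kept as the groups, and the results below are given also with RG@M-γ-CD replicate 1 left out. That array was singled out by its expression on these same arrays. The counts and p values without it are therefore a description and no independent test. With it left out, 2428 of all genes had an unadjusted p below 0.05 in limma, against 419 with all arrays.

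No member differed between the groups after adjustment over all genes, and most members leaned downward. With limma, 0 of 38 members passed an adjusted p of 0.05, as did 0% of all 19087 genes, for which the smallest adjusted p was 0.817. At an unadjusted p below 0.05 there were 3 members, all lower with RG@M-γ-CD, where 2.2% of all genes were called, 1.33% lower and 0.864% higher. They were Tlr12, Cd14 and Rel. In the methods' t-test 3 members also had an unadjusted p below 0.05, with Myd88 in place of Rel, and 0 passed after Benjamini-Hochberg adjustment. The 3 arrays of one group lay wholly below the other for 3 members, Tlr12, Cd14 and Myd88, and for 0 the other way. Over all genes the share was 4.57%, with 2.19% lower and 2.38% higher.

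The fitted change, RG@M-γ-CD minus PBS, was below 0 for 33 of 38 members, against 52.8% of all genes. Their median change was -0.165 on the log2 scale, and that of all genes was -0.012. Of the 69 member probes that were well above background on all 6 arrays, 59 had a negative difference. These 69 include the 38 probes already counted and further probes of the same genes on the same arrays. They are therefore no separate evidence, and the share over all probes is not given here. Only Tlr1, Tlr5, Irak4, Tab1 and Relb had a change above 0. No member reached the 2-fold threshold of the methods, the largest being Rel at 1.83-fold lower.

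**Figure D1:**
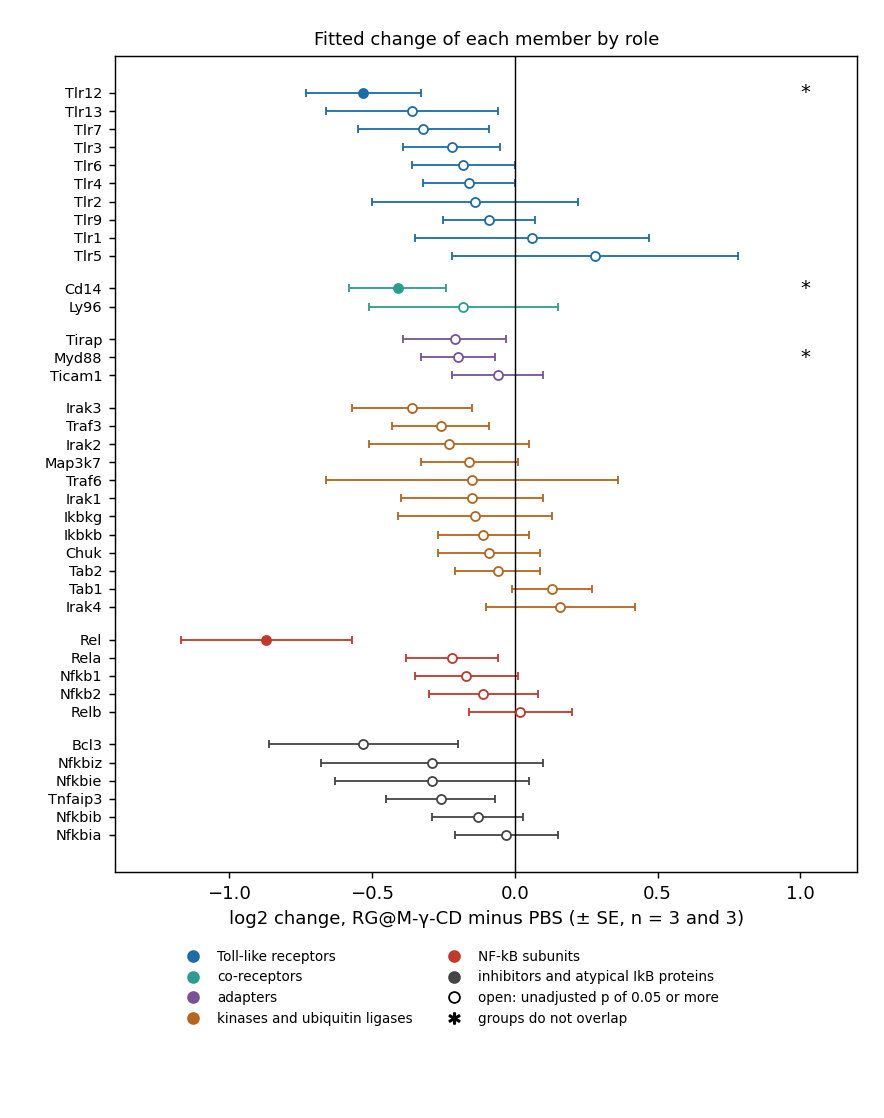
Fitted log2 change of the 38 tested members (x axis, RG@M-γ-CD minus PBS, bars ± SE, 3 mice per group), sorted within each role. Filled points (Tlr12, Cd14, Rel) had an unadjusted p below 0.05, stars mark the 3 members whose groups do not overlap, and 33 of 38 points lie left of 0.

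Over all members, the lean was seen on treated replicates 2 and 3, but not in every role. The median over the members of the difference from each gene's 6-array mean was 0.04, -0.21 and -0.14 on treated replicates 1 to 3. It was 0.03, 0.04 and 0.13 on PBS replicates 1 to 3, so treated replicate 1 lay within the PBS range. On treated replicates 2 and 3, the kinases and ubiquitin ligases were at -0.25 and 0.01, and the co-receptors at 0.16 and -0.24. The adapters were at -0.08 and -0.09 there, and at -0.08 on PBS replicate 1. With treated replicate 1 left out, the median change was -0.243, 32 of 38 members were below 0 against 54.8% of all genes, and 9 members had an unadjusted p below 0.05 (8 lower, 1 higher), against 12.5% of all genes. In that comparison 0 members passed the adjusted threshold, which 1.06% of all genes did, and the groups did not overlap for 19 members against 25.9% of all genes. Leaving out PBS replicate 1 or 3, or treated replicate 3, in turn left 0 members at an unadjusted p below 0.05, against 2.36%, 1.72% and 1.25% of all genes. Leaving out replicate 1 of both groups left 6 members at an unadjusted p below 0.05, against 12.3% of all genes, and 26 members without overlap, against 49.3%.

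The grouping of the cluster diagram was drawn from expression on these same arrays, so counts from it are a description. For arrays 6, 7 and 8 minus arrays 5, 10 and 11, 29 of 38 members had a change below 0, against 63.8% of all genes. There were 5 members at an unadjusted p below 0.05, against 16.5%, 0 past the adjusted threshold, against 0.0259%, and 9 without overlap, against 25.5%.

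**Figure D2:**
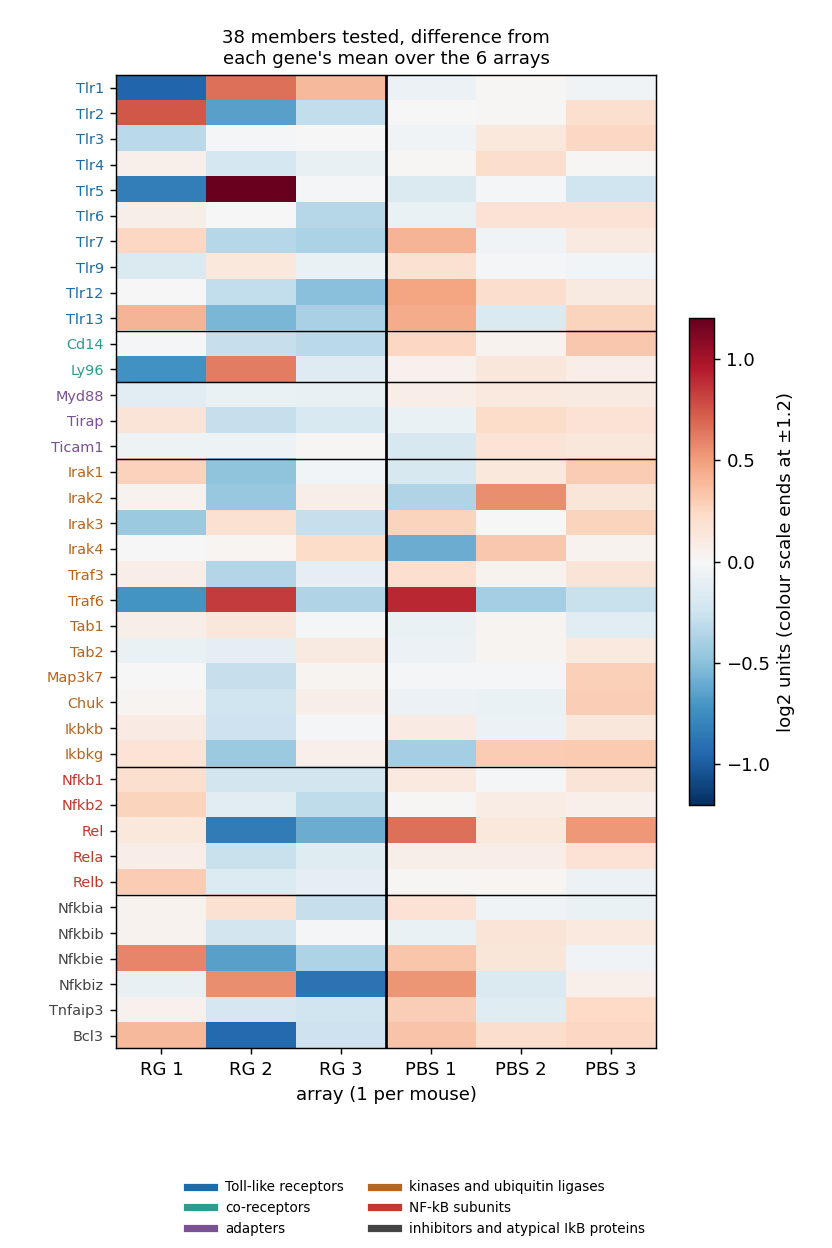
Heat map of the 38 tested members (rows, label color by role) on the 6 arrays (columns, RG for RG@M-γ-CD), colored by the difference in log2 units from each gene's mean over the 6 arrays. Blue is frequent on RG 2 and RG 3, while RG 1 resembles the PBS arrays for Nfkb1 and Rela and departs from all others for Tlr1, Tlr2 and Ly96.

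Among the Toll-like receptors, 8 of the 10 tested had a change below 0, with a median of -0.168. Tlr12, an endosomal receptor for the profilin of protozoan parasites, had the largest negative change. Its values, in log2 units relative to the 75th percentile of each array, were 0.10, -0.20 and -0.41 on treated replicates 1 to 3 and 0.57, 0.30 and 0.20 on PBS replicates 1 to 3. All RG@M-γ-CD arrays lay below all PBS arrays, by a narrow margin between treated replicate 1 and PBS replicate 3. The change was -0.53 ± 0.20 (SE, n = 3 and 3; limma, unadjusted p = 0.0343, adjusted p = 1), or 1.44-fold lower. Its sign held in all 19 alternatives, but the methods' t-test and a block for replicate number cannot change the estimate of a gene. Tlr12 has 1 probe, so the other filters and the mean of probes left it at -0.53 as well. The unadjusted p of Tlr12 lay between 0.0151 and 0.456.

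Tlr2, the surface receptor for bacterial lipoproteins, showed the spread within the treated group. Its values were 3.15, 1.76 and 2.11 with RG@M-γ-CD and 2.41, 2.42 and 2.60 with PBS. Treated replicate 1 was the highest of the 6 arrays, and replicates 2 and 3 were the lowest. The change was -0.14 ± 0.36 (adjusted p = 1). Once treated replicate 1 was left out, it was -0.54 (limma, unadjusted p = 0.0292, adjusted p = 0.305), and with treated replicate 2 left out it was 0.15.

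Tlr1, which pairs with Tlr2 for triacylated lipoproteins, had the opposite order on the treated arrays, with 0.75, 2.36 and 2.09 in the RG@M-γ-CD group and 1.63, 1.71 and 1.66 in the PBS group. Its second probe had the same order, 0.71, 2.13 and 1.88 against 1.41, 1.55 and 1.43. The change of Tlr1 was 0.06 ± 0.41 (adjusted p = 1), and with treated replicate 1 left out it was 0.56 (limma, unadjusted p = 0.0186, adjusted p = 0.245). Tlr6, the partner of Tlr2 for diacylated lipoproteins, had a change of -0.18 ± 0.18. Treated replicate 1 was thus the highest array for Tlr2 and the lowest for Tlr1.

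For Tlr4, the lipopolysaccharide receptor, the probes differed in how far the groups were apart. The probe used had -0.41, -0.68 and -0.56 with RG@M-γ-CD and -0.46, -0.26 and -0.46 with PBS. On it the groups overlapped, and the change was -0.16 ± 0.16 (adjusted p = 1). A second probe, detected on all arrays, gave -0.76, -0.76 and -0.80 against -0.60, -0.44 and -0.10, a difference of -0.39 with groups that did not overlap. It reads the same gene on the same arrays and is no separate evidence. Tlr5, the flagellin receptor of the gut epithelium, had the largest positive change among the members, 0.28 ± 0.50. This rested on 1 array, since its values were -3.62, -1.53 and -2.80 with RG@M-γ-CD against -2.96, -2.80 and -3.03 with PBS. When treated replicate 2 was set aside, the change was -0.28.

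The endosomal receptors of nucleic acids had changes of -0.22 ± 0.17 for Tlr3 (double-stranded RNA), -0.32 ± 0.23 for Tlr7 (single-stranded RNA), -0.09 ± 0.16 for Tlr9 (CpG DNA) and -0.36 ± 0.30 for Tlr13 (bacterial ribosomal RNA). Their adjusted p was 1 in each case. After leaving out treated replicate 1, Tlr7 (-0.52, unadjusted p = 0.0398) and Tlr13 (-0.65, unadjusted p = 0.0338) had an unadjusted p below 0.05 in limma, with adjusted p values of 0.357 and 0.327. Over the 6 comparisons that leave out 1 array, Tlr7 ran from -0.52 to -0.19 and Tlr13 from -0.65 to -0.17. Tlr8 was not tested: its brightest probe was detected on 1 of 3 treated and 2 of 3 PBS arrays. Tlr11, the other profilin receptor, was well above background on 0 of 6 arrays.

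Both co-receptors of Tlr4 were measured. Cd14, which hands lipopolysaccharide to the receptor and marks monocytes and macrophages, was at 3.83, 3.56 and 3.52 with RG@M-γ-CD and at 4.09, 3.88 and 4.16 with PBS. The groups did not overlap, although treated replicate 1 and PBS replicate 2 were close. The change was -0.41 ± 0.17 (limma, unadjusted p = 0.0486, adjusted p = 1), or 1.33-fold lower. A second Cd14 probe gave 3.76, 3.44 and 3.48 against 4.02, 3.90 and 4.08, a difference of -0.44. The unadjusted p of Cd14 stood close to 0.05 and was over it in most alternatives, from 0.0276 to 0.287 over them.

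Ly96 (MD-2), the subunit of the Tlr4 complex that binds lipid A, had 2.88, 4.22 and 3.45 with RG@M-γ-CD and 3.66, 3.74 and 3.69 with PBS. The treated arrays lay on both sides of the PBS arrays, and the change was -0.18 ± 0.33 (adjusted p = 1). With treated replicate 1 left out, its sign turned, to 0.14.

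All 3 adapters tested had a change below 0. Myd88, the adapter of nearly all Toll-like receptors and of the interleukin-1 receptors, was 2.23, 2.27 and 2.26 with RG@M-γ-CD and 2.43, 2.47 and 2.46 with PBS. The groups were separated, and each had an SD of 0.02, so the difference of -0.20 was larger than the spread within either group, although it amounted to 1.15-fold. limma, which draws the variance of each gene toward that of all genes, gave a SE of 0.13 (unadjusted p = 0.188, adjusted p = 1). The methods' t-test gave an unadjusted p of 0.000324 and an adjusted p of 1. The sign of Myd88 held in all 19 alternatives, some of which again could not change it, with changes from -0.22 to -0.07.

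Tirap, which bridges Myd88 to Tlr2 and Tlr4, had 1.17, 0.74 and 0.84 with RG@M-γ-CD and 0.94, 1.24 and 1.19 with PBS, a change of -0.21 ± 0.18. Ticam1 (TRIF), the adapter of Tlr3 and of endosomal Tlr4, had 0.65, 0.65 and 0.72 against 0.52, 0.87 and 0.84, a change of -0.06 ± 0.16. Both had overlapping groups and an adjusted p of 1. Ticam2 (TRAM), which links Tlr4 to Ticam1, was well above background on 0 of 6 arrays and was not tested.

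**Figure D3:**
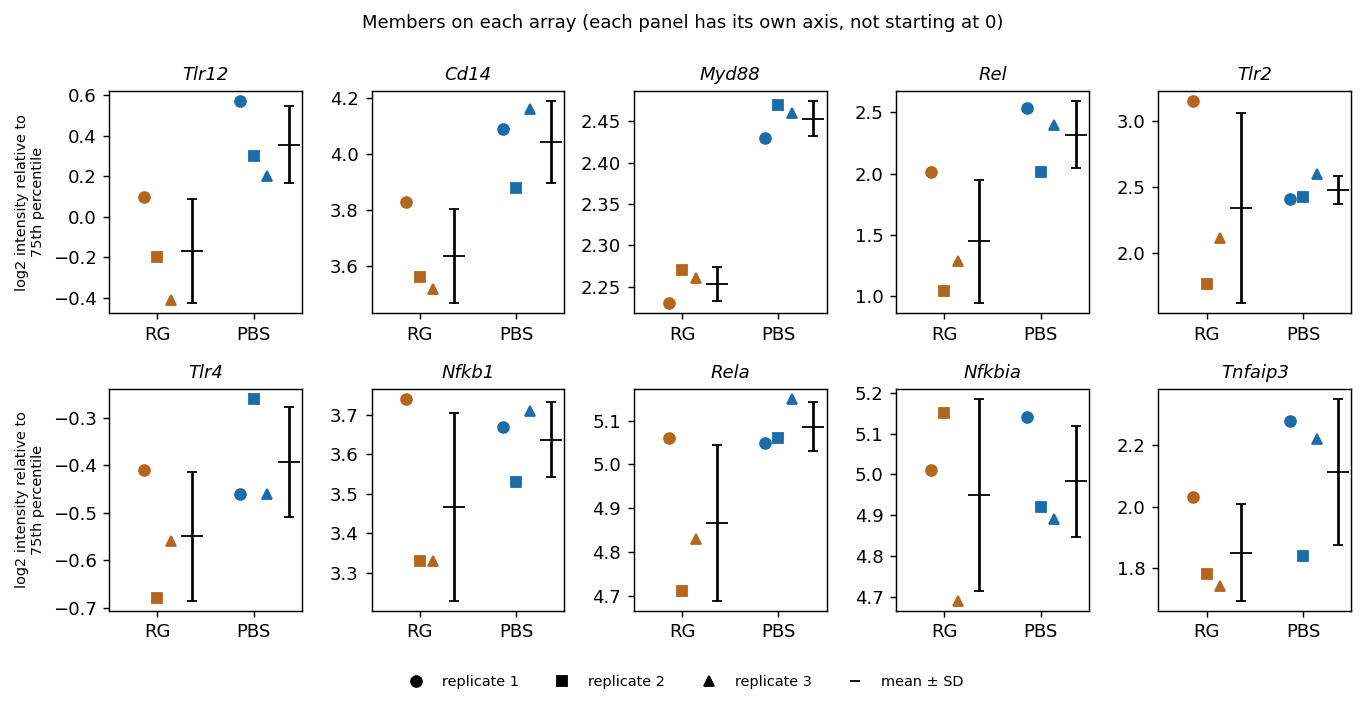
Values of 10 members on each array (y axis, log2 intensity relative to the 75th percentile of the array, with a separate scale per panel), with group mean ± SD (n = 3). Myd88, Cd14 and Tlr12 are separated by group, while for Tlr2, Nfkb1 and Rela the first RG@M-γ-CD replicate lies at or above PBS levels and the other two lie below.

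Of the 12 kinases and ubiquitin ligases, 10 had a change below 0, with a median of -0.149, and 0 had an unadjusted p below 0.05. Once treated replicate 2 was left out, this median was -0.00306, and with the slide row as a block it was 0.0326. Irak3 (IRAK-M), the IRAK family member that restrains signaling, had the largest negative change. It was at -2.26, -1.63 and -2.09 with RG@M-γ-CD and at -1.55, -1.81 and -1.55 with PBS, so that treated replicate 2 overlapped the PBS arrays. The change was -0.36 ± 0.21 (adjusted p = 1). Irak4, the kinase that starts the cascade at Myd88, had the largest positive change, 0.16 ± 0.26. Its values were -0.10, -0.08 and 0.12 against -0.70, 0.22 and -0.06, and without PBS replicate 1, the lowest array, the change was -0.10. A second Irak4 probe had a difference of -0.34.

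Irak1 and Irak2, which pass the signal from Irak4 to Traf6, had changes of -0.15 ± 0.25 and -0.23 ± 0.28. Traf3, which steers signaling toward interferon and holds back the noncanonical pathway, had -0.26 ± 0.17, and both of its probes were lower (-0.26 and -0.19). Traf6, the ubiquitin ligase at the center of the route, had -0.15 ± 0.51. The probe used for Traf6 gave 0.05 on treated replicate 2 and 0.11 on PBS replicate 1, and between -1.51 and -1.06 on the other arrays. Another Traf6 probe gave -0.57, -1.58 and -0.92 against -1.01, -0.89 and -0.80, with treated replicate 2 as the lowest array, and a difference of -0.12. The order of the arrays for Traf6 therefore depended on the probe.

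In the TAK1 complex, the kinase Map3k7 had a change of -0.16 ± 0.17, and its 3 probes had differences of -0.24, -0.16 and -0.23. Its ubiquitin-binding partner Tab2 had -0.06 ± 0.15, and Tab1, the activating subunit, had 0.13 ± 0.14. In the IKK complex the changes were -0.09 ± 0.18 for Chuk (IKKα), -0.11 ± 0.16 for Ikbkb (IKKβ) and -0.14 ± 0.27 for the scaffold Ikbkg (NEMO). All 6 had an adjusted p of 1, and 2 further Ikbkg probes had differences of the opposite sign (0.18 and 0.12). Each of these 6 changes was smaller than its SE.

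Among the NF-κB subunits, 4 of 5 had a change below 0, with a median of -0.167. The median ran from -0.305 (treated replicate 1 left out) to -0.0967 (treated replicate 2 left out). Rel (c-Rel), the subunit most tied to lymphocytes and myeloid cells, had the largest negative change of all members. It was at 2.01, 1.04 and 1.28 with RG@M-γ-CD and at 2.54, 2.01 and 2.40 with PBS. Treated replicate 1 met PBS replicate 2 at 2.01, so the groups touched, and the other treated arrays lay clearly below. The change was -0.87 ± 0.30 (limma, unadjusted p = 0.0234, adjusted p = 1), or 1.83-fold lower. A dimmer Rel probe was well above background on 1 treated and 3 PBS arrays, so no exact difference is given for it. When treated replicate 1 was set aside, the change of Rel was -1.16 (unadjusted p = 0.0022, adjusted p = 0.0897 in limma). The sign of Rel held in all 19 alternatives, some of which again could not change it.

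Rela (p65), the main transactivating subunit, was at 5.06, 4.71 and 4.83 with RG@M-γ-CD and at 5.05, 5.06 and 5.15 with PBS, a change of -0.22 ± 0.16. Nfkb1 (p105, the precursor of p50) was at 3.74, 3.33 and 3.33 against 3.67, 3.53 and 3.71, a change of -0.17 ± 0.18. In both, treated replicate 1 lay within or above the PBS values and the other treated arrays lay below them. The fitted changes of the noncanonical subunits were smaller in size, and whether they differ from the others was not tested. Nfkb2 (p100, the precursor of p52) had -0.11 ± 0.19. Relb was at 3.31, 2.84 and 2.90 with RG@M-γ-CD and at 3.02, 3.03 and 2.94 with PBS, a change of 0.02 ± 0.18, and another Relb probe had a difference of -0.01. The adjusted p was 1 for each of these genes.

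All 6 inhibitors and atypical IκB proteins had a change below 0, with a median of -0.273. It was -0.163 with treated replicate 2 left out and -0.456 with the slide row as a block. The largest was that of Bcl3, an atypical IκB protein that works in the nucleus with p50 and p52. It was at 5.48, 4.16 and 4.84 with RG@M-γ-CD and at 5.43, 5.30 and 5.34 with PBS. Treated replicate 1 was the highest of all arrays and the other two were the lowest, and the change was -0.53 ± 0.33 (adjusted p = 1). After leaving out treated replicate 1, it was -0.85 (limma, unadjusted p = 0.0126, adjusted p = 0.205), and with treated replicate 2 left out it was -0.19.

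Nfkbia (IκBα), the inhibitor that NF-κB induces to end its own signal, differed least. It was at 5.01, 5.15 and 4.69 with RG@M-γ-CD and at 5.14, 4.92 and 4.89 with PBS, a change of -0.03 ± 0.18. Tnfaip3 (A20), a ubiquitin-editing enzyme that shuts off Traf6 and the IKK complex, was at 2.03, 1.78 and 1.74 against 2.28, 1.84 and 2.22, a change of -0.26 ± 0.19. Its treated replicate 1 lay above PBS replicate 2, so the groups overlapped. The other inhibitors had -0.13 ± 0.16 for Nfkbib (IκBβ), -0.29 ± 0.34 for Nfkbie (IκBε) and -0.29 ± 0.39 for Nfkbiz (IκBζ, an atypical IκB needed for secondary response genes). A second Nfkbiz probe had a difference of 0.18. The adjusted p was 1 for all 6.

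Since subunits and inhibitors of NF-κB are themselves among its targets, the promoters of the members were searched for the κB motif by its 10-base consensus, on both strands and with overlapping matches allowed. RefSeq promoter windows (GRCm38.p6, 250 bases before to 50 after the start) were at hand for 31 members. A match was found for 11 of these 31 (35.5%), against 9.55% of the 27025 symbols with a window and 8.46% of all windows. By role, the matches fell on 4 of 5 inhibitors and atypical IκB proteins (Bcl3, Nfkbia, Nfkbie and Tnfaip3), 2 of 3 subunits (Nfkb2 and Rel), 3 of 10 kinases and ligases (Irak1, Map3k7 and Traf3), 2 of 10 receptors (Tlr2 and Tlr3) and 0 of 3 adapters. A match is a string of letters and not a measured binding site.

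The 250 bases before the start are shown for 5 members, to set the subunit with the largest change (Rel) beside the classical feedback genes (Nfkbia, Tnfaip3 and Nfkb2) and a receptor (Tlr2). Each runs 5′ to 3′ on the strand of the gene, and capitals mark the κB matches that lie whole within the stretch. The third Tlr2 match runs across the start and is not marked. Nfkb2 has 3 windows, all with matches, and the stretch of 1 of them is shown.
Rel, chr11:23770970-23771219 (-): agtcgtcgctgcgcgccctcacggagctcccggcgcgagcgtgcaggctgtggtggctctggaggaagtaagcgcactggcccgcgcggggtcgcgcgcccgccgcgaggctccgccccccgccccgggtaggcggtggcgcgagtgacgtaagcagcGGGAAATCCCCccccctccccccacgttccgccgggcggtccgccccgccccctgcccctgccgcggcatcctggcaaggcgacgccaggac
Nfkbia, chr12:55492648-55492897 (-): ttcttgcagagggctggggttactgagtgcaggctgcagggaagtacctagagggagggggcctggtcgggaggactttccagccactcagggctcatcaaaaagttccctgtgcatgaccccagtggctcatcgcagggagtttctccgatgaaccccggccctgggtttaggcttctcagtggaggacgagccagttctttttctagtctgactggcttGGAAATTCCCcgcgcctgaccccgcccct
Tnfaip3, chr10:19015411-19015660 (-): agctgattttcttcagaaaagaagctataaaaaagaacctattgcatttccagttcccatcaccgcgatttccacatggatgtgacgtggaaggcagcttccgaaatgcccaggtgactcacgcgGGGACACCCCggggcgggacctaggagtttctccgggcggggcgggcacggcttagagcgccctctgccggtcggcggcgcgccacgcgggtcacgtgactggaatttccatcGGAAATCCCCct
Nfkb2, chr19:46304487-46304736 (+): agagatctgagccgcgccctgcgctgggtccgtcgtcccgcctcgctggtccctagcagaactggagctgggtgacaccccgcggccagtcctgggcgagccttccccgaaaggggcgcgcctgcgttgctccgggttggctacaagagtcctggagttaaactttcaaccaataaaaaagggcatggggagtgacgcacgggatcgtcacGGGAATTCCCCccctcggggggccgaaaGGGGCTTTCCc
Tlr2, chr3:83841609-83841858 (-): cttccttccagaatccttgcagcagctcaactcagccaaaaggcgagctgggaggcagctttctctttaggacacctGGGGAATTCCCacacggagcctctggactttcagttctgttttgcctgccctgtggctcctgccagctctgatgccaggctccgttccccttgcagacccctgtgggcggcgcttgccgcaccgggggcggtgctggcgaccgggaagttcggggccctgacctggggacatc

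Bcl3, with the largest change of the inhibitors, had its match just past the start. The matches of Bcl3 and of the other 5 members with a match, which lay before the start, are given as stretches of 30 bases with the match in capitals, on the same build.
Bcl3, chr7:19822734-19822763 (-): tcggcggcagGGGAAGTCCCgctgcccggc
Nfkbie, chr17:45555584-45555613 (+): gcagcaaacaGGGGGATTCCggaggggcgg
Traf3, chr12:111166350-111166379 (+): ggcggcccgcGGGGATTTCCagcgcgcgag
Irak1, chrX:74023920-74023949 (-): agggcggcgcGGGACGCCCCcgtgtggcgg
Map3k7, chr4:31964005-31964034 (+): ccccgggtcaGGAAATTCCCcgctcgggtc
Tlr3, chr8:45410572-45410601 (-): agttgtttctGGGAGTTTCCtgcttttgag

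The members with a match did not share a size of change. Rel, with overlapping matches of which the first begins at position -92 relative to the start, had the largest one, and Nfkbia, with a match at -29, had the smallest. The median change was -0.22 over the 11 members with a match, all of them below 0. It was -0.145 over the 18 tested members with a window and no match, of which 15 were below 0.

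Of the NF-κB target genes, 30 of 34 tested had a change below 0, with a median of -0.343. Of these 34, 6 had an unadjusted p below 0.05 in limma, all lower, with 0 past the adjusted threshold. Over all genes, 52.8% had a change below 0, and 1.33% were lower and 0.864% higher at that unadjusted threshold. The same shares stand beside the lists that follow. The 30 include Cxcl3, Cxcl2 and Mmp9, each well above background on 2 of 3 treated and 3 of 3 PBS arrays. These genes passed the filter only through the PBS group, which favored a change below 0, and none of them is among the 6. Nos2 (inducible nitric oxide synthase) was at 1.60, 0.45 and 0.23 with RG@M-γ-CD and at 3.38, 2.15 and 3.25 with PBS. The groups did not overlap, and the change was -2.16 ± 0.47 (limma, unadjusted p = 0.00313, adjusted p = 1). Cxcl5, a chemokine that draws neutrophils, was at 4.11, 1.56 and 2.76 against 5.54, 4.44 and 5.23, a change of -2.26 ± 0.65 (unadjusted p = 0.0116 in limma).

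The other targets at an unadjusted p below 0.05 in limma were Lcn2 (lipocalin-2, an antibacterial iron-binding protein; -1.88), Ccr7 (a homing receptor of dendritic and T cells; -1.47), Il23a (a subunit of interleukin-23; -1.05) and Ccl5 (a T cell chemokine; -0.91). Cxcl3, another neutrophil chemokine, was well above background on 2 of 3 treated and 3 of 3 PBS arrays, so its fitted -2.36 is no exact change; it was at -2.58, -6.46 and -3.02 against -1.17, -2.43 and -1.35. The largest positive changes were those of the cytokine Il6, at 0.88 ± 0.61 (-0.80, -2.23 and -3.26 against -3.20, -3.28 and -2.45), and the chemokine Ccl3, at 0.28. Il6 was highest on treated replicate 1.

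Of the genes of ligand handling and receptor trafficking, 12 of 17 had a change below 0 (median -0.117), and Lbp, which brings lipopolysaccharide to Cd14, had an unadjusted p of 0.0306 in limma. Lbp was at -2.41, -2.20 and -3.10 with RG@M-γ-CD and at -1.03, -2.26 and -0.84 with PBS, a change of -1.19 ± 0.43. The largest negative changes were those of S100a8 (a calprotectin subunit and Tlr4 ligand; -2.52) and Saa3 (an acute-phase protein; -1.77), and the largest positive ones those of Cd36 (a scavenger receptor; 0.70) and Vcan (versican; 0.16). S100a8 spread widely, at 3.24, -2.24 and -0.80 against 2.86, 1.33 and 3.56.

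Of the negative regulators, 19 of 27 had a change below 0 (median -0.147, and -0.0576 with treated replicate 2 left out). Tnip3 (-0.84 ± 0.33, unadjusted p = 0.0397 in limma), which binds A20, and Socs1 (-0.83 ± 0.29, unadjusted p = 0.0265 in limma), a suppressor of cytokine signaling, were lower. Il1rl1, the receptor of interleukin-33, had the largest negative change, -1.74, and it rested on 1 array: 2.17, -2.16 and 2.24 with RG@M-γ-CD against 2.04, 2.47 and 2.97 with PBS. The largest positive changes were those of Dusp1 (a phosphatase of MAP kinases) and Zfp36 (which destabilizes cytokine mRNAs), at 0.81 each. Zfp36 was at 2.74, 4.55 and 2.95 against 2.65, 2.71 and 2.45, a change of 0.81 ± 0.47 in which treated replicate 2 stood apart. Its groups did not overlap, by a narrow margin between treated replicate 1 and PBS replicate 2. In this list 3 genes had treated arrays wholly below PBS, Socs1, Inpp5d and Nlrc3, and 1 had them above. Over all genes the shares were 2.19% and 2.38%.

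Of the noncanonical NF-κB genes, 10 of 11 had a change below 0 (median -0.286, and -0.0498 without PBS replicate 1), the lowest being Cd40 (-0.89, detected on 2 of 3 treated arrays) and Ltb (lymphotoxin β; -0.47), and the highest were Tnfrsf11a (RANK; 0.02) and Traf3ip2 (-0.02). Of the further signaling components, 20 of 29 had a change below 0, and their median of -0.041 was close to that of all genes. The lowest were Pik3ap1 (an adapter of phosphoinositide 3-kinase; -1.24, detected on 1 of 3 treated arrays) and Btk (a B cell kinase; -0.49), and the highest Traf5 and Peli2, both ubiquitin ligases, at 0.23 each. Cd40 and Pik3ap1 were each well above background on 3 of 3 PBS arrays and passed the filter only through that group. This favored a change below 0, so neither value is an exact change. Neither list had a gene at an unadjusted p below 0.05.

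With treated replicate 1 left out, 31 of 34 NF-κB target genes had a change below 0, the median was -0.553, and 15 had an unadjusted p below 0.05, all lower, of which 2 passed the adjusted threshold. In the same comparison 12 of 14 macrophage and monocyte markers were lower at an unadjusted p below 0.05 (median -0.757). Of 10 neutrophil markers, 6 were lower and 1 was higher at that threshold (median -1.624), and 2 passed the adjusted one. Of 6 T cell markers, 4 were lower at the unadjusted threshold (median -0.794). All 7 smooth muscle markers were higher at the unadjusted threshold, 5 of them past the adjusted one (median 1.783). Of all genes in that comparison, 54.8% had a change below 0, 12.5% had an unadjusted p below 0.05 and 1.06% passed the adjusted threshold.

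**Figure D4:**
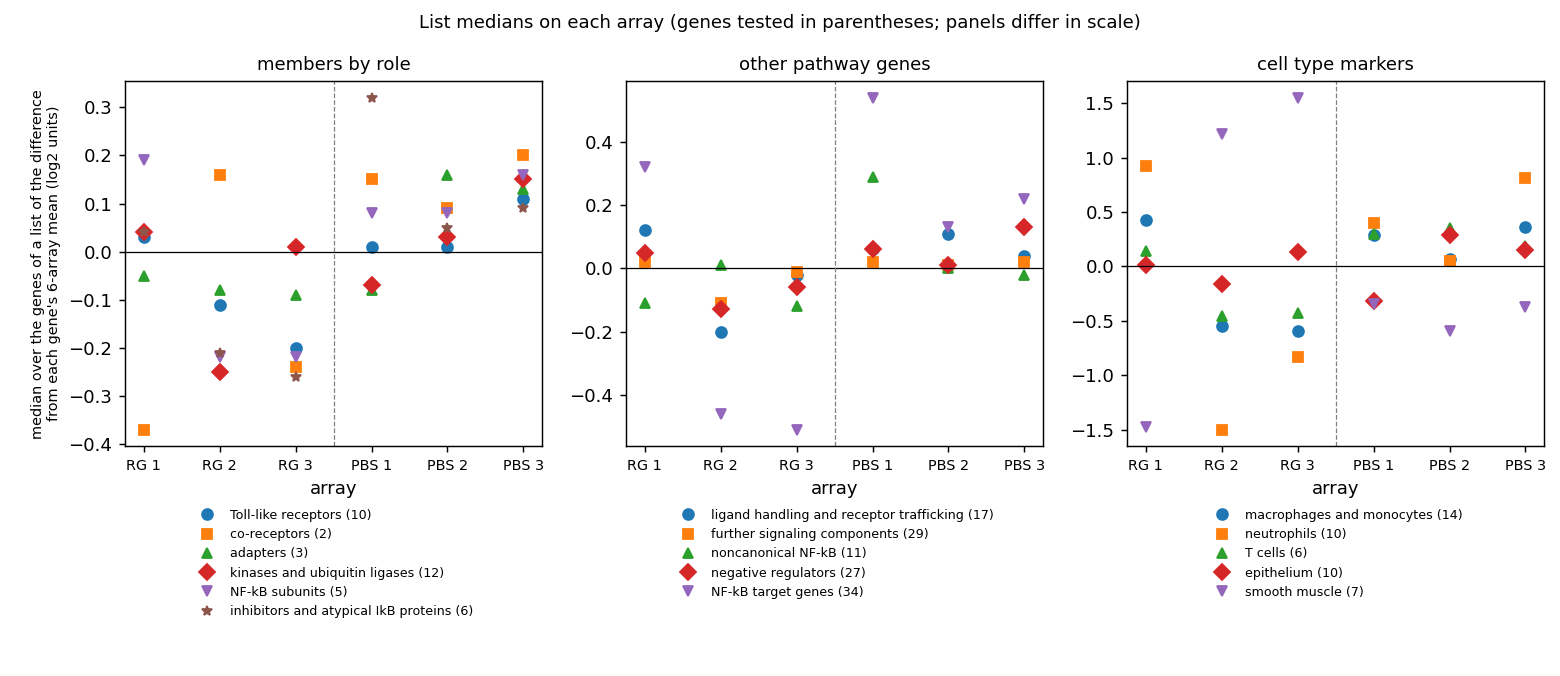
Median on each array, over the genes of a list, of the difference in log2 units from each gene's 6-array mean, for the members by role (left), other pathway genes (middle) and cell type markers (right), with panels on different scales. NF-κB target genes are at 0.32 on RG 1 and at -0.46 and -0.51 on RG 2 and RG 3. Macrophage, neutrophil and T cell markers are likewise lowest on RG 2 and RG 3, and smooth muscle markers are highest there.

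Markers of cell types also differed between the arrays. All 14 macrophage and monocyte markers were well above background on all arrays and had a change below 0 (median -0.502, 1 of them at an unadjusted p below 0.05). Their summed level, on a linear scale relative to the 75th percentile, ran from 136 to 289 with RG@M-γ-CD and from 251 to 322 with PBS, with the highest treated value on treated replicate 1. Of the neutrophil markers, 8 of 10 tested had a change below 0 (median -0.82). Of these 10, 0 were lower at an unadjusted p below 0.05 and 1 was higher, Camp (0.54, unadjusted p = 0.0425 in limma). Camp was well above background on 3 of 3 treated and 2 of 3 PBS arrays, so its 0.54 is no exact change. Cxcr2 and Mmp8 were well above background on 1 of 3 treated arrays, Retnlg on 2 of 3, and each on 3 of 3 PBS arrays. The filter admitted each of these genes only through the group where it was higher, which favored the sign of its change. The summed level of the neutrophil markers was 47.4 to 101 against 60.4 to 105, but it was carried by few bright probes. Csf3r was at 5.02, 6.25 and 5.30 against 6.01, 5.19 and 5.18, while S100a9 was at 5.73, 0.95 and 2.02 against 4.83, 4.07 and 5.06. Ngp was well above background on no array. All 6 T cell markers tested had a change below 0 (median -0.579; summed level 3.67 to 6.29 against 5.86 to 7.66), with Cd8a well above background on no array. All 7 smooth muscle markers had a change above 0 (median 0.912), with a summed level of 103 on treated replicate 1, 665 and 799 on the other treated arrays, and 197 to 229 with PBS. The 10 epithelial markers were well above background on all arrays, and their summed level was 1240 to 1490 against 1160 to 1670. B cell markers had a summed level of 2.54 to 5.17 with RG@M-γ-CD and 1.24 to 15.7 with PBS, highest on PBS replicate 1. Goblet cell markers ran from 314 (treated replicate 1) to 1260 against 628 to 1330. All 5 dendritic cell markers tested were lower (median -0.38) and all 6 endothelial ones higher (0.344). Medians were 0.025 for the 7 fibroblast and -0.584 for the 4 squamous markers tested. Of 8 exocrine pancreas markers, 1 was well above background on all arrays. The part of cell type content in the changes of the pathway genes was not tested.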

How the data were processed

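Colon tissue of 6 mice was measured on 1 slide of one-color Agilent mouse arrays, 1 array per mouse, and groups were taken from the sample labels. The authors scanned the arrays and deposited linear spot intensity values extracted with Agilent Feature Extraction 10.7.1.1, per the file headers. They also deposited a value table of log2 values, in which all arrays share 1 distribution; it was used as an alternative. The log2 of the processed intensity was taken, outlier spots were left out, spots of a probe were averaged, and the 75th percentile of each array was subtracted. A probe was kept where all 3 arrays of either group showed it well above background, and the brightest stood for its gene. The groups were compared with limma 3.58.1 in R 4.3.3 over all genes, with Benjamini-Hochberg adjustment at 0.05, and the script was tested on simulated data. The 3 arrays per group limit the precision. The methods' t-test (fold of at least 2, unadjusted p of at most 0.05) was an alternative, as were quantile normalization, normexp with offset 50, other filters, blocks and left-out arrays.

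The members and lists were chosen with earlier results of these data known. Values on every array are given for members at an unadjusted p below 0.05 or with groups that do not overlap, for the highest and lowest change of each role, and for the central genes Tlr2, Tlr4, Cd14, Myd88, Nfkb1, Rela, Nfkbia and Tnfaip3. Further pathway genes were named at an unadjusted p below 0.05 or as the 2 highest and 2 lowest of their list. Further probes are given for some members and not for others, and they are no separate evidence. Of the 90 member probes, 70 had an accession in the RefSeq table, and 0 of these carried another symbol there. Whether same-numbered samples pair was checked by the correlation of their deviations (-0.25, -0.233 and 0.136), and they were not treated as pairs.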

Additional observations from a re-analysis of the deposited data

How the results depend on the processing

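No member passed an adjusted p of 0.05 in the 19 alternatives (0 of 38 or more tested in each). The number at an unadjusted p below 0.05, 3 as reported, was 1 with no filter on dim probes, 5 for arrays 6, 7 and 8 against 5, 10 and 11, 6 without RG@M-γ-CD and PBS replicates 1, 1 without RG@M-γ-CD replicate 2 and PBS replicate 1, and 0 to 9 with 1 array left out. The number whose groups do not overlap, 3 as reported, was 6 with quantile normalization, the authors' table or the mean of probes, and 9, 26 and 14 in the same 3 arrangements, and 3 to 19 with 1 array left out. That arrangement of arrays 6, 7 and 8 follows a cluster diagram drawn from expression on these arrays, so its counts are no independent test. The replicate block left 2 members at an unadjusted p below 0.05 and 463 genes in all, against 419; same-numbered samples share only a number. All genes at that threshold numbered 779 with no filter, 3193 in the arrangement, 2428 without RG@M-γ-CD replicate 1, 2406 without both replicates 1, 637 without RG@M-γ-CD replicate 2 and PBS replicate 1, and 241 without RG@M-γ-CD replicate 3. Medians moved as follows. With the slide row as a block, which moved the median of all genes to 0.0972, they were -0.0256 for the adapters, 0.0326 for the kinases and ligases, -0.456 for the inhibitors and -0.723 for the target genes, and 27 of 38 members were below 0. In the arrangement, where the median of all genes was -0.116, they were 0.0517 for the co-receptors, -0.27 for ligand handling and 0.0564 for noncanonical genes. The receptors had -0.303 without both replicates 1. The noncanonical genes had -0.103 with the mean of probes, -0.0312 without both replicates 1 and -0.134 without RG@M-γ-CD replicate 2 and PBS replicate 1. With 1 array left out the medians ran from -0.195 to -0.00306 for kinases and ligases, -0.278 to -0.0498 for noncanonical genes and -0.219 to -0.0576 for negative regulators. Single members changed sign as follows. With the slide row as a block: Ticam1 0.16, Irak1 0.12, Irak2 0.25, Tab2 0.04, Chuk 0.03, Ikbkg 0.33, Relb 0 and Nfkbib 0.01. In the arrangement: Tlr9 0.15, Ly96 0.34, Irak3 0.12, Irak4 -0.24, Traf6 0.93, Relb -0.17, Nfkbia 0.05 and Nfkbiz 0.13. Without both replicates 1: Tlr9 0.05, Ly96 0.12, Irak4 -0.06, Traf6 0.58, Relb -0.11 and Nfkbia 0.02. Without RG@M-γ-CD replicate 2 and PBS replicate 1: Tlr1 -0.27, Tlr2 0.12, Tlr5 -0.29, Irak4 -0.07, Traf6 0.10, Ikbkb 0.01 and Nfkbie 0.06. With the mean of probes Irak4 had -0.09 and Ikbkg 0.05, and with normexp Nfkbia had 0.01. With 1 array left out the change ran from -0.25 to 0.56 for Tlr1, -0.54 to 0.15 for Tlr2, -0.28 to 0.77 for Tlr5, -0.53 to 0.14 for Ly96, -0.33 to 0.05 for Irak1, -0.10 to 0.36 for Irak4, -0.39 to 0.17 for Traf6, -0.16 to 0.03 for Chuk, -0.38 to 0.04 for Ikbkg, -0.27 to 0.02 for Nfkb2, -0.12 to 0.11 for Relb, -0.13 to 0.10 for Nfkbia and -0.64 to 0.09 for Nfkbiz. The cause of these changes was not tested.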

Other observations

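RG@M-γ-CD replicate 2 and PBS replicate 1 shared a pattern across probes. Of 26540 probes well above background on all arrays, 654 (2.46%) were at least 1 log2 unit higher on both of these arrays than on the other 4, and 12 (0.0452%) were lower by as much; the threshold was chosen after the values were seen. Among the 69 member probes 5 (7.25%) had this pattern, 1 each for Irak2 (gap of 1.49), Nfkb1 (1.33), Ikbkb (1.30), Traf6 (1.11) and Nfkbiz (1.02). The Traf6 probe is the one whose values are reported above, and the other 4 are further probes of their genes.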
